A study of Danio rerio with 12 samples.

Results

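Winners and losers of a real fight were compared directly in the brain of the zebrafish, Danio rerio, to see how far the outcome of a fight separated brains that shared the fight itself. The comparison used 6 of the 12 arrays of the series, the 3 titled Winner and the 3 titled Loser, chosen by title alone. All fish were adult wild-type fish of the AB strain, kept in isolation for 5 days before the test, which lasted 30 min, and RNA came from whole brains. Winners and losers had each met a live opponent. The other 6 arrays entered the fit as well. They came from 3 isolated samples, which met nobody, and 3 mirror fighters, which attacked their own reflection and so had neither victory nor defeat. The labels give no age and no sex per array, only that sexes were kept in equal number before the test. Whether each array came from a single brain or from several is not given, nor is it given whether same-numbered winners and losers had fought each other. The p-values therefore cover the spread between these samples and no more.

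Zebrafish settle dominance in short fights, after which the winner chases and the loser flees or freezes. Neurons that fire strongly switch on immediate early genes within minutes, among them transcription factors of the Fos, Egr and Nr4a families, so their transcripts mark recent activity. Slower signals also act on the brain after a contest. Cortisol acts through its receptor on genes such as fkbp5 and klf9, while dopamine, serotonin, neuropeptides and sex steroids shape aggression and submission in fish.

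Each array gave a signal intensity for 15502 probe sets after control probe sets were removed, and 10795 of these carried 1 gene symbol. Values below are log2 intensities, differences are winner minus loser on the log2 scale, and errors of differences are standard errors. A probe set was called where limma's Benjamini-Hochberg adjusted p lay under 0.05. The 3876 probe sets with the lowest mean intensity over all arrays are called dim. Brain markers read high on all 12 arrays: the neuronal gene snap25a lay between 13.08 and 13.44, the myelin gene mbpa between 13.14 and 13.40 and the glial gene fabp7a between 12.2 and 12.7. Markers of the pituitary (gh1, prl) and of cone photoreceptors (gnat2) had group means of 3.97 to 4.72 in winners and losers. Other such markers read higher. In winners and losers the pituitary gene pomca averaged 4.75 and 4.93 and the retina gene gnat1 5.31 and 5.24. The muscle genes ckma (7.33 and 7.37) and mylpfa (6.28 and 6.04) lay above these. Of the erythroid genes, hbaa1 averaged 13.11 and 13.18, as bright as the brain markers, and alas2 7.63 and 7.53. Array medians ranged from 94.1 to 104.5 in intensity over the 12 arrays. Winner and loser arrays differed by 0.02 in median log2 intensity, by 0.13 in the bacterial hybridization controls and by -0.01 in the poly-A controls (two-sided exact permutation p = 0.6, 0.7 and 0.9, where 3 arrays against 3 cannot go below 0.1). The hybridization controls read 9.99 to 10.76 in winners and losers and 9.27 to 9.51 in isolated fish and mirror fighters. The poly-A controls read 6.62 to 6.86 against 6.01 to 6.45 and the cre controls 13.37 to 13.62 against 13.13 to 13.24. Isolated fish and mirror fighters thus stood apart in all 3 measures, and their part in comparisons with these groups was not tested.

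Taken over the whole transcriptome, winner and loser brains were about as alike as brains of the same outcome. The correlation of log2 intensity across probe sets averaged 0.962 between 2 winner arrays, 0.961 between 2 loser arrays and 0.964 between a winner and a loser. The array nearest to a given array was more often of the opposite outcome, but each array had 3 of the opposite outcome to be near and fewer of its own. Among the 6 arrays, winner array 3 and loser array 3 lay nearest to each other (0.973), and losers 1 and 2 lay nearest to winner array 2 (0.965 and 0.967). Winner array 1 lay as near to winner array 2 as to loser array 1 (0.962 for both). Winner array 2 was nearest to an array of its own group, winner array 3, at 0.967. Over all 12 arrays its closest was isolated array 3 (0.970). Pairs of a winner and a loser sharing a number correlated at 0.967 on average and those with different numbers at 0.962. These values come from arrays that share their probe sets and are given as a description. The leading component of variation among the 6 arrays, with 27.6% of the variance, set both arrays numbered 3 (-37.56 and -34.42) apart from both arrays numbered 1 (27.30 and 24.80). Of the arrays numbered 2, the loser (19.89) lay with the arrays numbered 1 and the winner (-0.02) lay in between. The second component (21.8%) set winner array 1 (42.34) apart from loser array 1 (-2.71), so the array number did not order the main variation throughout.

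**Figure D1:**
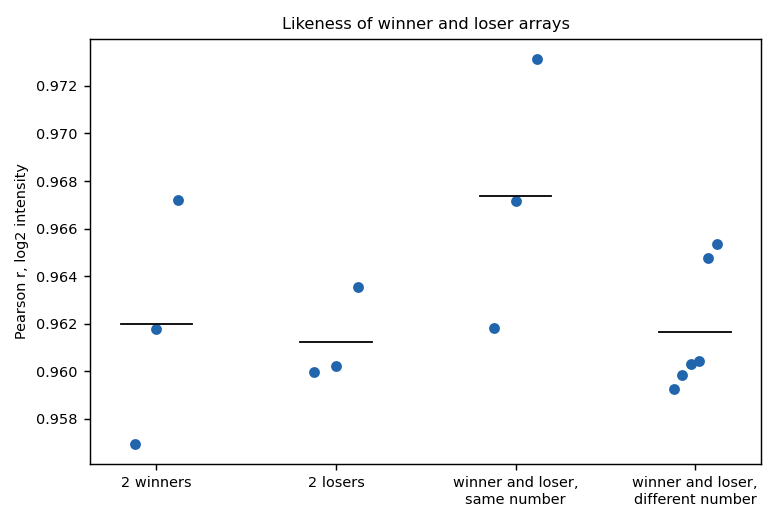
Pearson correlation of log2 intensity across 15502 probe sets for each pair of winner and loser arrays, by kind of pair. Points are pairs of arrays and bars their means, which lie at 0.962 for 2 winners, 0.961 for 2 losers, 0.967 for a winner and a loser with the same number and 0.962 for those with different numbers.

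No gene passed the test between winners and losers. Of the 15502 probe sets, limma called 0 (0%), and 642 had an unadjusted p under 0.05 (4.14%), 338 higher in winners (2.18%) and 304 higher in losers (1.96%). The smallest adjusted p was 0.387. The 3 winner arrays and the 3 loser arrays did not overlap at 1020 probe sets (6.58%), 610 with winners above (3.93%) and 410 with losers above (2.64%). With 3 arrays against 3, labels without any effect would separate a probe set at a rate of 0.1. The share of 6.58% did not exceed that rate, and a share near it is no sign of separation by outcome. In the same fit, winners and isolated fish did not overlap at 23.8% of probe sets, and losers and isolated fish at 26.2%. Against mirror fighters the shares were 22.7% for winners and 24.2% for losers. These comparisons share arrays with the one between winners and losers. They also cross the gap in control signal given above, and how far that gap enters their shares was not tested. Mirror fighters and isolated fish, both on the low side of that gap, did not overlap at 10.7%. Differences between winners and losers were mostly small, with a median size of 0.14. Of the probe sets, 320 differed by more than 1, of which 240 were dim. For a probe set that was not dim the 95% interval of a difference, without adjustment, reached 0.44 to either side in the median case. With 3 arrays a group the adjusted test asked for more than this. Differences of -0.82 (prpf3) and -1.12 (pax7a), both without overlap, were not called either.

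The count of calls moved with single arrays. Leaving out loser array 1, loser array 2, winner array 1 or mirror fighter array 2 gave a count of 1 each, and leaving out winner array 3 gave 2. It was also 1, ndrg4, when the spread was estimated from the 6 winner and loser arrays alone. With same-numbered winner and loser arrays as a replicate block limma called 0, with 943 at an unadjusted p under 0.05 and a smallest adjusted p of 0.327.

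**Figure D2:**
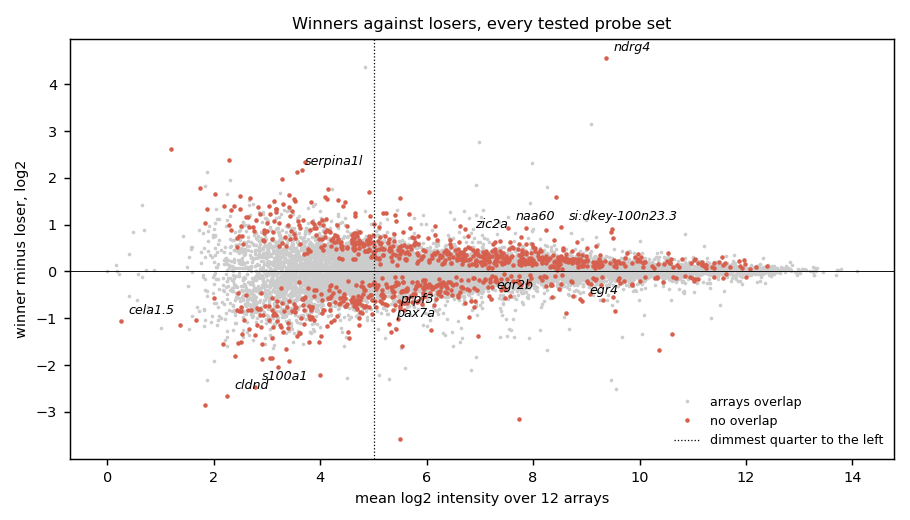
Winner minus loser difference in log2 intensity (vertical) against the mean log2 intensity over 12 arrays (horizontal) for all 15502 probe sets. Red points, 1020 in all, are probe sets whose winner and loser arrays did not overlap, grey points those that did, and the dotted line bounds the dim probe sets, where most differences larger than 1 lie.

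The largest gap among the genes named by smallest p was in ndrg4, a gene of the N-myc downstream regulated family that is expressed in brain and heart. Its probe set read 11.32, 11.95 and 11.26 in winners and 6.89, 6.78 and 7.19 in losers, a 23.5-fold difference in intensity. The groups lay far apart, and the difference was 4.55 ± 0.96 (n = 3, limma adjusted p = 0.789). The error is shared over all 4 groups, and the same probe set read 10.79, 11.04 and 10.04 in isolated fish and 6.68, 11.40 and 7.21 in mirror fighters. All 12 arrays thus stood either between 10.04 and 11.95 or between 6.68 and 7.21, and mirror fighters fell on both sides. Without mirror fighter array 2 the difference passed (adjusted p = 0.000672), as it did from the 6 arrays alone (adjusted p = 0.0126). A second probe set of ndrg4 read 12.66 to 12.99 in winners and 12.70 to 12.85 in losers, with a difference of 0.01.

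Among other genes that were not dim, several separated winners from losers on the probe set named, without passing the test. The zinc finger factor zic2a, known from dorsal neural tissue, read 6.73, 6.99 and 7.11 in winners against 6.05, 6.34 and 6.13 in losers, a difference of 0.77 ± 0.17 (adjusted p = 0.789). Isolated fish averaged 7.13 ± 0.03 (SD, n = 3) and mirror fighters 6.87 ± 0.29, so the loser arrays were the low ones on this probe set. On the brighter probe set of zic2a winners and losers overlapped (0.21 ± 0.16) and mirror fighters had the lowest mean (11.24 ± 0.13). The uncharacterised si:dkey-100n23.3 read 8.28, 8.40 and 8.68 in winners and 7.38, 7.72 and 7.44 in losers. Isolated fish (9.15 ± 0.31, SD) and mirror fighters (9.01 ± 0.30) read higher than either. For naa60, which encodes a protein N-acetyltransferase, winners read 7.53, 7.63 and 8.02 and losers 6.50, 6.53 and 7.34. The kinase gene fyna of the Src family read 5.50, 5.37 and 5.68 in winners and 4.72, 4.88 and 5.13 in losers. Apart from the brighter probe set of zic2a, the lowest winner array lay above the highest loser array on each of these probe sets.

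The opposite order was seen in pax7a and prpf3. The paired box factor pax7a, a marker of the optic tectum and of pigment and muscle precursors, read 4.85, 5.20 and 4.28 in winners and 5.76, 6.26 and 5.67 in losers (-1.12 ± 0.25, adjusted p = 0.789). Its 3 other probe sets differed by -0.30, 0.00 and -0.01, none without overlap. The splicing factor gene prpf3 read 5.03, 5.15 and 4.68 in winners and 5.76, 5.87 and 5.69 in losers (-0.82 ± 0.15, adjusted p = 0.716). Here the isolated fish (5.64 ± 0.14, SD) lay with the losers and the mirror fighters (5.12 ± 0.11) with the winners. The brighter probe set of prpf3 did not show this, with an overlapping difference of -0.20 ± 0.24 and with isolated fish (6.90 ± 0.04) and mirror fighters (6.94 ± 0.18) above both.

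**Figure D3:**
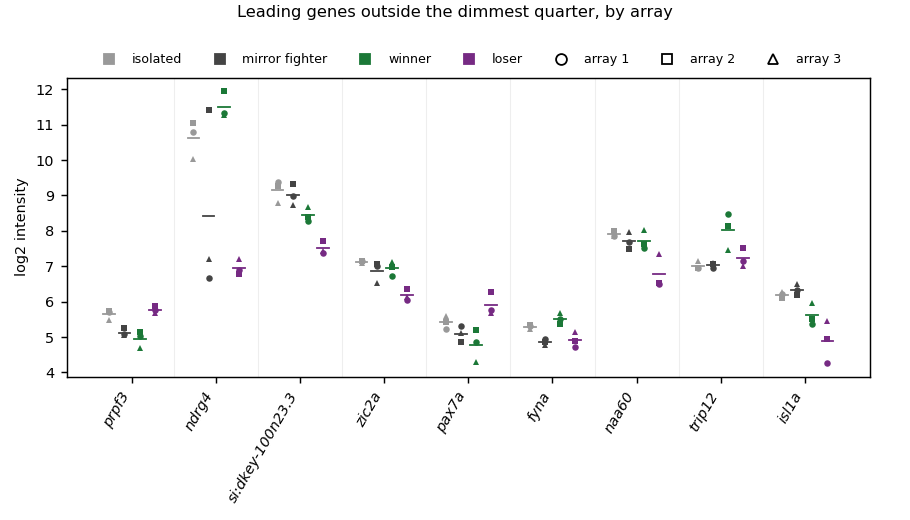
Log2 intensity on each array for the 9 probe sets that were not dim among those named by smallest p, in isolated fish, mirror fighters, winners and losers. Symbols mark the array number and bars the group means. Winner and loser arrays overlapped for trip12 and isl1a and did not for the other 7, of which ndrg4 stood at 2 distant levels.

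Most of the genes with the smallest p were dim. Of the 24 genes named by smallest p, 12 in each direction, 17 were dim, and all 24 had arrays that did not overlap, which the ranking by p favours. Higher in losers were cldnd, which encodes a tight junction claudin, at 0.00, 0.77 and 2.12 in winners and 3.71, 3.56 and 3.63 in losers (-2.67 ± 0.43, adjusted p = 0.418), and sft2d1, a vesicle transport gene, at 1.80, 1.68 and 2.68 against 3.21, 3.59 and 3.61 (-1.42 ± 0.25). A value of 0 is the floor of the deposited table. The pancreatic type elastase gene cela1.5, with the smallest p of all (adjusted p = 0.387), read at that floor in all winners, isolated fish and mirror fighters and at 1.24, 0.70 and 1.24 in losers, so no fold is given. Further genes higher in losers were zgc:66156 (-1.51 ± 0.24), jac1 (-1.17 ± 0.24), the ubiquitin ligase gene arih1l (-1.15 ± 0.23), the septin gene septin9b (-1.37 ± 0.28), the oxysterol binding protein gene osbpl7 (-1.15 ± 0.24), prrg4 (-0.67 ± 0.15) and the centrosomal gene cep70 (-0.91 ± 0.21). For arih1l the other probe set differed by 0.90, in the opposite direction, and the brighter probe set of sft2d1 differed by 0.01 ± 0.15. The other probe sets of septin9b and osbpl7 differed by -0.32 and -0.27, with overlap.

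Dim genes higher in winners included serpina1l, of the antitrypsin family, at 3.31, 4.33 and 4.05 in winners and 1.99, 0.74 and 2.58 in losers (2.13 ± 0.42, adjusted p = 0.789). The phosphatase gene ptpdc1b read 4.79, 4.41 and 4.37 against 1.97, 2.97 and 3.32 (1.77 ± 0.36). For both, isolated fish lay near or above the winners, at 4.59 ± 0.34 for serpina1l and at 5.17 ± 0.26 for ptpdc1b (SD, n = 3). The lipid droplet gene fitm2 differed by 2.18 ± 0.49, but its 3 other probe sets differed by 0.04 to 0.10. The rest were zgc:103700 (1.40 ± 0.35), the cytochrome P450 gene cyp27a2 (0.94 ± 0.21), zgc:172136 (0.59 ± 0.13) and the retinol dehydrogenase gene rdh1 (0.54 ± 0.13). Of the 34 genes named by smallest p with or without the replicate block, 15 had other probe sets. In 11 of these all others had the same sign, and 0 of the other probe sets had arrays that did not overlap. The sign alone was counted, also where the other difference was near 0, as in ndrg4 (0.01), fitm2 (0.04 to 0.10) and hist2h2l (-0.06).

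Most immediate early genes read slightly higher in losers than in winners, by a small amount, with a list median below 0 in each of the 3 same-numbered pairs. Of 83 listed genes 59 were measured, 0 were called in either direction, and 40 had a lower mean in winners and 19 a higher one. The median difference was -0.10, beside 0.02 over all 8793 genes with 1 symbol. Of those 8793 genes, 3885 had a lower mean in winners and 4908 a higher one. Arrays did not overlap for 6 of the 59 (10.2%, beside 6.58% of all probe sets), 5 of them with losers above and 1 with winners above. The share of 10.2% is near the rate of 0.1 that labels without effect would give. The 5 were egr2b, egr4, btg2, sik1 and pim1, and the 1 was crema, with pim1 (-0.20 ± 0.13) lying outside the rule for named genes and given after its values were seen. Among same-numbered arrays the list median was -0.11, -0.05 and -0.11, and 17 genes were lower in the winner of all 3 pairs against 5 that were higher. Over all 8793 genes with 1 symbol, 901 were lower in the winner of all 3 pairs and 1343 higher. Summed over the list, intensity was 27370, 27670 and 27720 in winners and 31170, 30960 and 29540 in losers, with no overlap.

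Of the Egr zinc finger factors, egr2b and egr4 had the smallest p in this group. The gene egr2b read 7.62, 7.37 and 7.37 in winners and 8.01, 7.96 and 7.99 in losers, a difference of -0.53 ± 0.13 with a 95% interval of -0.82 to -0.25 (limma adjusted p = 0.823). All losers lay above all winners, and both groups above isolated fish (6.19 ± 0.03, SD) and mirror fighters (7.09 ± 0.18). For egr4 winners read 9.40, 9.85 and 9.28 and losers 10.46, 10.11 and 9.88 (-0.64 ± 0.26), again without overlap. Its relative egr1 read 9.46, 9.75 and 9.27 against 10.00, 9.77 and 9.67, where winner array 2 lay within the losers (-0.32 ± 0.28). Its other probe set had no overlap, with 6.38, 6.81 and 6.62 against 7.38, 6.88 and 7.06 (-0.50 ± 0.23).

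Other activity genes followed with smaller or more variable differences. The neuronal activity factor npas4a read 11.68, 11.71 and 11.11 in winners and 12.02, 11.98 and 11.55 in losers (-0.35 ± 0.27), lower in the winner of every same-numbered pair although the groups overlapped. The AP-1 subunit gene fosab, with 9.68, 9.89 and 9.30 against 10.33, 9.91 and 9.86 (-0.41 ± 0.27), was also lower in the winner of every pair. Of its 3 other probe sets, which differed by -0.47 to -0.76, 2 had no overlap: one read 7.76, 7.77 and 7.51 in winners and 8.57, 8.32 and 8.07 in losers, the other 7.62, 7.57 and 7.66 against 8.47, 8.26 and 8.38 (-0.76 ± 0.28). The second AP-1 gene junba differed by -0.39 ± 0.17 and the antiproliferative gene btg2, at 8.0, 7.97 and 7.96 against 8.35, 8.38 and 8.18, by -0.33 ± 0.15. The salt inducible kinase gene sik1, which restrains CREB signalling, differed by -0.28 ± 0.17. The CREB family repressor crema went the other way, with 5.51, 5.51 and 5.39 in winners and 5.15, 5.25 and 4.63 in losers (0.46 ± 0.20). On the brightest probe set of each gene, egr2b, egr4, btg2, junba and crema had an unadjusted limma p under 0.05. These were 5 of the 59 measured genes (8.47%, beside 4.14% of all probe sets). The 2 fosab probe sets without overlap, which lie outside that count, also had an unadjusted p under 0.05. None of these had a limma adjusted p under 0.05.

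Other named early genes overlapped between the outcomes and did not pass the test. The neurotrophin gene bdnf read 9.77, 9.78 and 9.92 in winners and 9.78, 9.76 and 10.09 in losers (-0.05 ± 0.14, 95% interval -0.36 to 0.25). The cytokine signalling inhibitor socs3a differed by -0.01 ± 0.35 (interval -0.77 to 0.76) and the nuclear receptor nr4a1 by -0.26 ± 0.29 (interval -0.90 to 0.38). The MAP kinase phosphatase gene dusp5 differed by -0.35 ± 0.17 (interval -0.74 to 0.04). For socs3a, nr4a1 and dusp5 these intervals leave room for differences of over 1.5-fold in intensity.

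**Figure D4:**
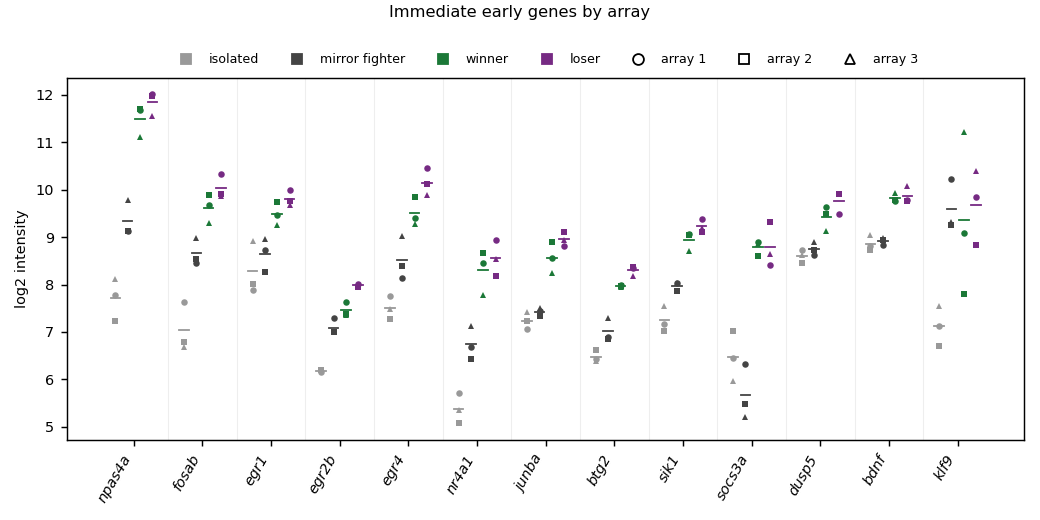
Log2 intensity of 13 immediate early genes on each array of the 4 groups. Winner and loser arrays lie close together, with losers above winners without overlap for egr2b, egr4, btg2 and sik1, while klf9 spans 7.80 to 11.22 within the winners.

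Some cortisol responsive genes varied widely among arrays of the same outcome, and others did not. Of 17 measured genes of the glucocorticoid and stress axis list, 0 were called, 6 were higher and 11 lower in winners, and the median difference was -0.10. The direct receptor target klf9 read 9.09, 7.80 and 11.22 in winners and 9.84, 8.83 and 10.39 in losers (-0.32 ± 0.73). The receptor cochaperone gene fkbp5 read 9.88, 7.90 and 11.30 against 10.67, 9.71 and 10.84 (-0.71 ± 0.78). In both genes and both groups array 3 was the highest and array 2 the lowest, so the spread followed the array number. The list median by same-numbered pair was -0.27, -0.21 and 0.47. In contrast, tsc22d3 read 10.76 to 10.99 in winners and 10.85 to 11.05 in losers (-0.11 ± 0.17), and sgk1 10.11 to 10.28 against 10.09 to 10.27 (0.00 ± 0.13). The receptor itself, nr3c1, differed by 0.19 ± 0.14 on its brightest probe set and by -0.20 and -0.02 on the others, the gluconeogenesis gene pck1, dim, by -1.31 ± 0.52 and the dim aminotransferase gene tat by 0.68 ± 0.33. The genes fkbp5, tsc22d3 and sgk1 are given for comparison with klf9 and were chosen after their values were seen.

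Of 18 measured genes of the monoamine systems 13 had a higher mean in winners, beside 55.6% of all probe sets. None was called, and the median was 0.13, beside 0.02 over all genes. The dopamine receptor gene drd2b read 5.94, 5.37 and 6.04 in winners and 5.11, 5.18 and 4.78 in losers (0.76 ± 0.39), and drd3 read 7.07, 6.74 and 6.71 against 6.56, 6.62 and 6.50 (0.28 ± 0.13). Both had no overlap, as 2 of 18 genes (11.1%, beside 6.58%), a share near the rate of 0.1 that labels without effect would give. The drd2b probe set varied widely within the other groups, with 4.45, 6.06 and 5.15 in mirror fighters and 5.48, 4.43 and 4.69 in isolated fish. For drd3 mirror fighters averaged 6.53 ± 0.07 (SD) and isolated fish 6.41 ± 0.06. Of the serotonin synthesis enzymes, tph2 of the raphe read 7.96, 7.41 and 8.13 against 6.89, 7.66 and 7.52 (0.48 ± 0.28) and overlapped. The other two, tph1a (-0.14 ± 0.19) and tph1b (-0.17 ± 0.26), given after their values were seen, had lower means in winners and overlapped too. The median stayed above 0 in all 3 same-numbered pairs (0.17, 0.11 and 0.19).

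Sex steroid genes had a median of 0.08, with 10 of 15 higher in winners (beside 55.6% of all probe sets) and 0 called. Brain aromatase, cyp19a1b, which makes oestrogen in radial glia, read 11.91, 12.17 and 11.84 in winners and 11.85, 11.57 and 11.47 in losers (0.34 ± 0.16). Winner array 3 and loser array 1 overlapped narrowly. Of its 2 other probe sets, a dim one differed by 1.02 with no overlap and the other by 0.24. The dim steroidogenic gene cyp17a1 differed by 0.97 ± 0.37, with its other probe set at -0.46, and the oestrogen receptor gene esr2a by 0.30 ± 0.21. The other probe set of esr2a, dim, differed by 1.1, with loser array 2 at 1.79. Summed intensity of the list was 5155, 6163 and 5509 in winners and 5123, 4521 and 4422 in losers without overlap, and cyp19a1b made up most of it.

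Neuropeptide and pituitary genes had 0 calls, and few of them separated the outcomes. Among 19 measured neuropeptide and hypothalamic genes the median was -0.02, and 1 had arrays that did not overlap (5.26%, beside 6.58% of all probe sets). This was otpb, a homeobox gene of neuroendocrine neurons, with 7.13, 7.44 and 7.38 in winners and 6.88, 6.64 and 6.97 in losers (0.49 ± 0.16). Isolated fish (8.0 ± 0.19, SD) and mirror fighters (8.08 ± 0.18) read higher than either. The LIM homeobox gene isl1a differed by 0.73 ± 0.27 on one probe set and by 0.30 ± 0.18 on the other, and the urotensin gene uts2b by -0.69 ± 0.32. Of 7 genes of the pituitary list 6 were higher in winners (median 0.13), beside 55.6% of all probe sets. Among them were gh1 (0.41 ± 0.31, dim) and scg2a (0.17 ± 0.16), while pomca stood at -0.18 ± 0.31. Mean log2 over the 12 arrays was 4.48 for gh1 and 11.11 for scg2a, so the list does not stand for a single pituitary signal.

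Lists of synaptic and neuronal genes had medians near 0, slightly above it. The medians were 0.07 for 20 synaptic plasticity genes, 0.08 for 19 vesicle and release genes, 0.09 for 19 neuronal genes and 0.05 for 13 glutamate and GABA genes, with 0 called, beside 0.02 over all genes. These lists share members, such as grin1a, gria2a and gria2b, and are not separate results. By pair the vesicle and release median was -0.02, 0.20 and 0.03 and the neuronal one 0.03, 0.20 and 0.02. The glutamate and GABA median was -0.10, 0.14 and 0.07, also highest in pair 2, and the synaptic plasticity one 0.17, 0.16 and 0.03. Their single differences were small for the growth cone gene gap43 (0.24 ± 0.15), the vesicle protein gene sypb (0.22 ± 0.14, its other probe sets at -0.21 and 0.18), the GABA receptor gene gabbr1a (0.11 ± 0.16), the glycine receptor gene glrba (0.10 ± 0.17) and the vesicular GABA transporter gene slc32a1 (0.08 ± 0.19). Larger ones with larger errors were those of the adhesion genes nrxn2a (1.28 ± 0.66, dim) and nlgn1 (0.65 ± 0.34), the kinase gene cdk5 (0.75 ± 0.30), the tubulin gene tubb5 (0.43 ± 0.30), the dynamin gene dnm1a (0.40 ± 0.34) and the vesicle gene syt5a (-0.52 ± 0.25). The dim GABA transporter gene slc6a11a read 5.13, 4.26 and 4.02 against 3.96, 3.31 and 3.09 and was named by its fit with the replicate block (limma adjusted p = 0.327). Summed intensity of the vesicle and release list was 56590, 64380 and 57380 in winners and 55640, 55830 and 55530 in losers, without overlap. Of the 24 lists, summed intensity had no overlap in 2 with winners higher and in 1 with losers higher.

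Markers of microglia and leukocytes showed the largest list median, lower in winners, but it rested on 2 of the 3 same-numbered pairs. Of 31 measured markers 27 had a lower mean in winners, 0 were called, 0 had arrays that did not overlap, and the median was -0.71. By pair it was -1.29, -1.01 and 0.10. The actin bundling gene lcp1 read 5.15, 6.69 and 5.06 in winners and 7.12, 8.17 and 6.11 in losers (-1.50 ± 0.58), and coro1a 5.72, 7.18 and 6.45 against 7.46, 8.51 and 7.06 (-1.22 ± 0.48), with its other probe set at 0.32. The lysosomal gene laptm5 differed by -0.79 ± 0.36. Summed intensity of the list ran from 5256 to 12090 over winners and from 7517 to 19840 over losers, a wide spread within both groups. The median was -0.23 without loser array 2, the highest of the 6 arrays, and -1.18 without loser array 3. In whole brain RNA, fewer cells of a type and less RNA per cell cannot be told apart.

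Interferon and immune genes, a list that shares irf1b and b2m with these markers, were also lower in the winners of pairs 1 and 2. Of 32 measured, 23 were lower in winners and 0 were called, with a median of -0.22, and by pair -0.39, -0.41 and 0.05. The chemokine gene ccl19a.1 read 4.94, 5.72 and 5.32 in winners and 6.95, 7.27 and 5.71 in losers (-1.32 ± 0.65), lower in the winner of each pair. The immunoproteasome subunit gene psmb9a differed by -0.85 ± 0.46 and the dim complement gene c6.2 by -1.30 ± 0.47. The median was 0.01 without loser array 2.

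Progenitor and cell cycle genes had no common direction, while single members separated the outcomes either way. Of 43 measured, 21 were higher and 22 lower in winners, with a median of -0.01 and 0 called. The arrays did not overlap for 8 (18.6%, beside 6.58%), 5 with winners above and 3 with losers above, and 9 had an unadjusted p under 0.05 (20.9%, beside 4.14%). The proneural factor gene neurog1 read 3.63, 4.56 and 4.37 in winners and 5.05, 4.73 and 5.16 in losers (-0.79 ± 0.23), and the mitotic kinesin gene kif23 4.84, 4.26 and 4.83 against 5.11, 5.21 and 5.16 (-0.52 ± 0.19). The cyclin gene ccne1 read 5.85, 5.44 and 5.30 in winners and 4.70, 4.87 and 3.46 in losers (1.19 ± 0.41). All 3 were dim, and 9 of the 43 members were. The other kif23 probe set differed by 0.34 ± 0.35, in the opposite direction. The stem cell factor sox2 differed by -0.97 ± 0.36 on a dim probe set, and by 0.11 and -0.10 on its 2 others.

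Lists of glia and blood had medians near 0, and those of vessels and meninges stood further from it, in opposite directions but not in every pair. The median was 0.00 for 26 radial glia and astroglia genes, 0.01 for 12 oligodendrocyte genes, 0.12 for 17 vascular genes, 0.05 for 22 erythroid genes and -0.14 for 30 meningeal genes, with 0 called. By pair the vascular median was -0.02, 0.28 and 0.03 and the meningeal one -0.31, -0.06 and 0.06. Both changed sign when a single array was left out. The vascular median was -0.05 without loser array 3 and the meningeal one 0.01 without winner array 1. The oligodendrocyte lineage factor nkx2.2a read 6.56, 6.57 and 6.58 in winners and 5.83, 6.34 and 6.16 in losers (0.46 ± 0.17), and the matrix protease inhibitor gene timp2b 6.50, 6.44 and 6.6 against 5.60, 6.29 and 5.80 (0.62 ± 0.23). For both, all winners lay above all losers. The haem synthesis gene urod read 6.24, 6.64 and 6.59 in winners and 6.93, 6.80 and 7.07 in losers (-0.44 ± 0.15). Smaller differences were those of the receptor genes notch3 (0.27 ± 0.16) and tie1 (0.33 ± 0.22), olig2 (0.15 ± 0.18), the myelin proteolipid family gene gpm6ab (0.11), the inhibitor of differentiation gene id4 (0.18) and the retinoid binding gene crabp2b (-0.39). The 4 dim genes named were the receptor gene tek (0.74), the mesenchymal factor gene twist1a (-0.39), the globin gene hbbe2 (0.65) and the haem synthesis gene fech (-0.42 ± 0.23).

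Metabolic, chaperone and clock lists also had medians near 0. The median was 0.04 for 53 glycolysis and lactate genes, 0.00 for 52 heat shock and chaperone genes and -0.04 for 31 pineal and clock genes, with 0 called. The lactate dehydrogenase gene ldhbb read 8.58, 8.79 and 8.21 in winners and 8.92, 8.77 and 9.27 in losers (-0.46 ± 0.18), overlapping through winner and loser arrays 2. The oxygen sensor gene egln3, dim, differed by -0.75 ± 0.32, the cochaperone gene bag2, dim, by 0.63 ± 0.25, the small heat shock gene hspb6 by 0.40 ± 0.20 and the clock genes clockb and per3 by 0.21 ± 0.14 and -0.88 ± 0.73 (the latter dim). The cochaperone partner gene hspbp1 differed by -0.46 and the cryptochrome gene cry4 by -0.23, both with overlap. The other probe set of hspbp1 had no overlap, with 5.94, 5.86 and 6.13 in winners and 6.67, 6.47 and 6.51 in losers (-0.58 ± 0.20).

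Lists of markers of tissue next to or outside the brain had medians near 0. Medians were -0.04 for 32 retina, lens and pigment genes, 0.06 for 33 muscle genes and -0.07 for 35 liver and plasma protein genes, with 0 called. The members with the smallest p lay in both directions, such as the lens gene crybb1 (0.52 ± 0.13), the dim photoreceptor gene guca1aa (1.09 ± 0.32) and the dim pigment enzyme gene tyr (-0.69 ± 0.29), the cardiac actin gene actc1a (-0.38 ± 0.15), and the dim plasma protein genes ambp (1.70 ± 0.46) and itih2 (-1.05 ± 0.36). Arrays did not overlap for 7 of the 32 retina, lens and pigment genes (21.9%, beside 6.58%), 4 with winners above and 3 with losers above, and 15 of these 32 were dim.

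**Figure D5:**
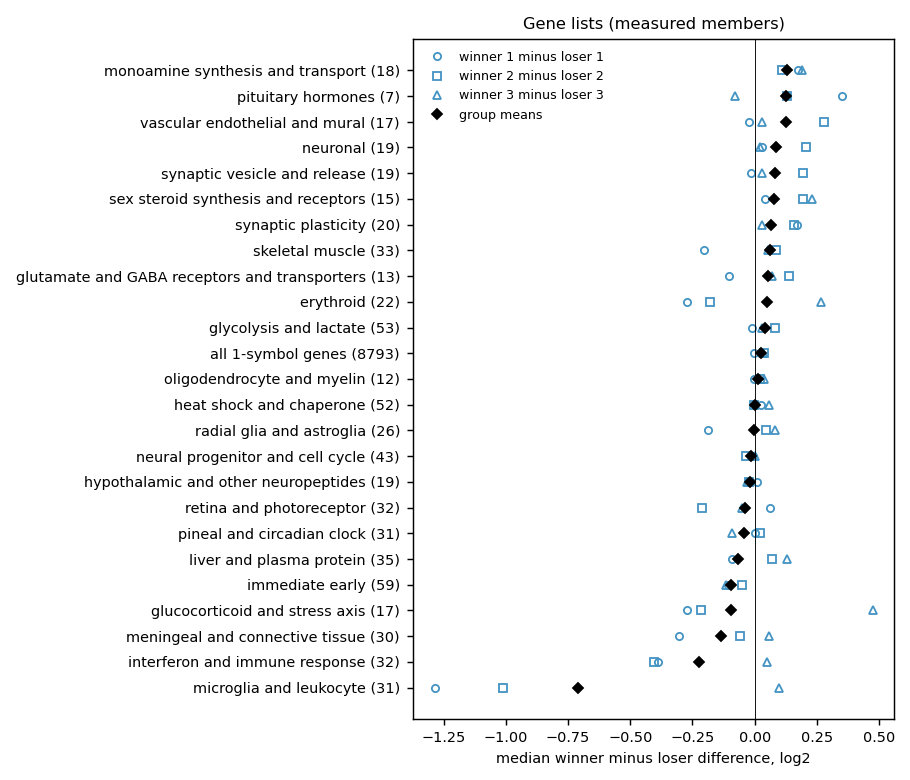
Median winner minus loser difference in log2 intensity for 24 gene lists and for all genes with 1 symbol, with the number of measured members in brackets. Diamonds use the group means and open symbols the 3 same-numbered pairs. The immediate early list lies below 0 in all 3 pairs, while the microglia and leukocyte list ranges from -1.29 to 0.10.

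Read as pairs, same-numbered winners and losers shared a small part of their variation. Their deviations from the group means correlated at 0.112, 0.111 and 0.233 over probe sets, and those of different-numbered arrays at -0.126 to 0.016. All 3 pair differences had the same sign at 3906 probe sets (25.2%), 2321 with winners higher and 1585 with losers higher. That share is about what 3 independent signs would give, so the count is no measure of paired change. Of the 24 lists, 1 had a median below 0 in all 3 pairs, the immediate early genes, and 4 had medians above 0 in all 3, the monoamine, sex steroid, synaptic plasticity and neuronal genes. The other 19 were mixed. Over all genes with 1 symbol the pair medians were -0.002, 0.038 and 0.033. In pair 3 the synaptic plasticity (0.028) and neuronal (0.020) medians lay below that of all genes. The count of lists with 1 direction is likewise no measure of paired change. Genes with the smallest p under the replicate block that the unpaired ranking had not named included the dim probe set of the serum response factor gene srfa, at 4.34, 3.62 and 3.10 in winners and 3.01, 1.65 and 2.38 in losers (1.34), whose other probe set differed by -0.47. The ubiquitin ligase gene trip12 read 8.49, 8.14 and 7.46 against 7.14, 7.52 and 6.99 (0.81). Other dim ones were s100a1 (-2.47), fbxo5, an inhibitor of the mitotic ubiquitin ligase (-2.04), the keratin gene krt1-19d (-1.91), the histone gene hist2h2l (-0.99) and rcn1 (0.55), of which the arrays of rcn1 overlapped. None had a limma adjusted p under 0.327 with the block.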

How the data were processed

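Each of the 12 whole brain samples was measured on an Affymetrix zebrafish expression array, 3 in each group. Amplification started from 100 ng of RNA, per the labels' protocols. The labels name both a column kit and Trizol for the extraction. Values deposited by the authors are linear signal intensities with a floor of 1. The submitters' processing notes name Partek 6.6, and how signals were summarised and normalized is not given in the sources used here. The number of arrays limits the precision. Each intensity was taken to log2 without an offset after 115 control probe sets had been removed. The platform annotation gave 10795 probe sets 1 symbol, 135 several and 4572 none, and 10711 were brought to current symbols through a gene table of assembly GRCz12tu, used for names only.

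The model, in limma 3.58.1 (lmFit, eBayes) under R 4.3.3, held the 4 group means and used the 12 arrays together. It left 8 residual degrees of freedom, to which moderation added 2.55. The contrast was winner minus loser, two-sided. Dim probe sets, the lowest 25%, lay under a mean log2 of 5.02. The script was tested on simulated data. The numbers were taken to pair winner and loser arrays because deviations of same-numbered arrays from their group means correlated at 0.112, 0.111 and 0.233 over probe sets, each over 0.1. Different-numbered arrays gave -0.126 to 0.016. Deviations within a group sum to 0, which pushes such values below 0, and 0.112 and 0.111 only just pass the cut. The pairing therefore has weak support. The labels do not say what a number marks. The 24 gene lists, with 1 probe set per gene, the brightest, are described by counts and medians. Named were, per direction, the 12 single-symbol genes with the smallest p, since none was called, 5 more with the smallest p with the block and all pairs in 1 direction, the 3 smallest p of each list and 13 immediate early genes. Members, lists and rules were chosen with earlier results of these data known. Alternatives were another offset, filter, normalization, moderation and set of arrays, the replicate block, averaged probe sets and leaving out each array.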

Additional observations from a re-analysis of the deposited data

How the results depend on the processing

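The count of 0 probe sets called between winners and losers was also 0 with 32 added before log2, without dim probe sets, after quantile normalization, after centring on the array median, with trend and robust moderation, without moderation, with the replicate block in either fit and with probe sets of a gene averaged. It was 1 from the winner and loser arrays only, and from 0 to 2 over the fits without 1 array. Across the 10 settings other than leaving out an array, between 334 and 943 probe sets had an unadjusted p under 0.05, and between 584 and 952 without 1 array. The 1 or 2 calls without an array were ndrg4 (without mirror fighter array 2), cela1.5 (without loser array 2), cldnd and sft2d1 (without winner array 3), and 2 probe sets with no symbol (without loser array 1 and without winner array 1). The cause was not tested. The share of probe sets without overlap, 6.58%, ranged from 5.78% to 6.91% over the settings that kept all winner and loser arrays, and from 12.7% to 18.7% when a winner or loser array was left out, since fewer arrays overlap less easily. Of the 112 probe sets named, 104 kept their direction in every alternative. Many were chosen by small p from these same arrays, which favours this. Where winner and loser arrays did not overlap, leaving out an array could not turn the sign. The named probe sets that did not keep their direction, none called, changed sign as follows: nr3c1 was -0.0081 with probe sets averaged. Over the fits without 1 array, pomca ran from -0.525 to 0.0747, bdnf from -0.111 to 0.0527, klf9 from -1.241 to 0.472 (0.0348 without loser array 3), glrba from -0.0658 to 0.2204, per3 from -1.515 to 0.0305, nr4a1 from -0.447 to 0.000491 and socs3a from -0.1935 to 0.258 (0.0876 without winner array 2). The fits that turned the sign were those without loser array 3 (pomca, bdnf, klf9), winner array 3 (glrba, per3, nr4a1), loser array 2 (socs3a) and winner array 2 (socs3a, klf9). The immediate early list median stayed between -0.15 and -0.08, and the microglia and leukocyte median between -1.18 and -0.23. Centring on the median moved the median of all probe sets from 0.02 to 0.01. The replicate block changed no call. Dim signals limit what can be said of most genes with a small p.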

Other observations

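Some probe sets that were not dim read at 2 distant levels across the 12 arrays, as ndrg4 did. A gap of more than 2 on the log2 scale with at least 2 arrays on each side was found at 25 of 11626 probe sets, a rule set after the values of ndrg4 were seen. Of these 25, ndrg4 was the 1 probe set that split all winners from all losers, and 23 split arrays within the winners or within the losers. The coatomer gene copb2 read 8.10, 1.93 and 8.56 in winners and 9.26, 9.11 and 9.68 in losers, and isolated array 1 shared its low level (1.46). The class I histocompatibility gene mhc1ufa read 3.83 in winner array 1 and 3.95 in mirror fighter array 2, against 8.86 to 12.08 on the other 10 arrays. The nudix hydrolase gene nudt3a read 9.88, 5.22 and 10.15 in winners and 5.13, 5.21 and 9.37 in losers. The carbonic anhydrase gene ca4a read 7.35, 9.31 and 7.80 in winners and 4.14, 8.35 and 3.66 in losers.

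A bright gene outside the naming rule, chosen after its values were seen, was abat, which encodes the enzyme that breaks down GABA. It read 10.37, 9.35 and 10.14 in winners and 11.82, 11.18 and 10.83 in losers, with no overlap (-1.33 ± 0.41, SE, n = 3), and did not pass limma's test over all probe sets. Isolated fish read 10.48 to 10.82 and mirror fighters 9.62 to 11.26.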
